A study of Mus musculus with 51 samples.

Results

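The measurement described here is the change in muscle RNA that followed loss of Bmal1 and Vhl together, minus the change that followed loss of Vhl alone, in mice fed a high-fat diet. It used 20 of the 51 libraries of the series, all from whole gastrocnemius muscle, and no gene was chosen for it: all genes that passed a filter on low counts entered. The contrast had 4 groups. The double knockouts (genotype Bmal1KO;VhlKO, 4 animals) were set against their controls with floxed alleles of both genes (Bmal1fx/fx;Vhlfx/fx, 6 animals, called double-floxed controls). The Vhl knockouts (VhlKO, 4 animals) were set against controls with floxed Vhl alone (Vhlfx/fx, 6 animals, called Vhl-floxed controls). All 20 animals were on the high-fat diet and belonged to batch 2 of the series. The deletion is described as specific to skeletal muscle, whereas the RNA came from whole muscle, so the other cells of the tissue contributed RNA with both genes present. The Cre driver, the deleted exons, the age of the animals and the time of day of collection were not given in the sources used here. Counts came from QuantSeq, a method that reads 1 tag near the 3′ end of each polyadenylated transcript. The contrast was computed on the log2 scale as (double knockout minus double-floxed control) minus (Vhl knockout minus Vhl-floxed control) and is called the added difference below. A log2 value of 1 is a 2-fold difference, the value after each ± is the standard error of the fit, and a gene is said to have changed, risen or fallen where its adjusted p was below 0.05 in edgeR's quasi-likelihood test with Benjamini-Hochberg adjustment over all genes tested. Counts of genes that were higher or lower, or had a positive or negative added difference, use the same threshold unless another is named. Above or below 0 refers to the sign alone.

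Bmal1 (gene symbol Arntl) encodes the transcription factor that pairs with CLOCK and binds E-box sequences to drive clock output genes, among them the repressors REV-ERBα and REV-ERBβ. VHL is the ubiquitin ligase subunit that marks hydroxylated HIF-α proteins for destruction, so that cells without it keep HIF active in the presence of oxygen, raise glycolytic and angiogenic genes and restrain mitochondrial oxidation. BMAL1 and HIF-α belong to the same bHLH-PAS family of proteins and bind related DNA sequences, and the series asks how the muscle clock and HIF act together in obesity. Skeletal muscle takes up most of the glucose cleared after a meal, and both pathways have been tied to that process.

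Library sizes ran from 6945247 counts in double knockout 1 to 14717795 in double-floxed control 3, and 13093 genes passed the filter. Within groups, libraries correlated with r from 0.965 to 0.983 across genes. All 10 fast-fibre markers of the labelled tissue passed the filter. Because the tags lie at the 3′ ends, Arntl and Vhl counts can come from transcripts that lack upstream exons and do not check the genotypes. Arntl stood at 14.03, 9.32, 9.64 and 13.3 scaled CPM (counts relative to library size, after the scaling between libraries that edgeR's TMM method gives) in the 4 double knockouts, and its lowest, median and highest values in the double-floxed controls were 13.8, 16.1 and 17.8. It fell by 0.48 ± 0.13 in the double knockouts (adjusted p = 0.0021), whereas its difference in the Vhl knockouts, −0.27 ± 0.13, did not pass (adjusted p = 0.097), and neither did the added difference of −0.21 ± 0.18 (adjusted p = 0.53). Vhl transcripts ranged from 1.64 to 3.84 scaled CPM in the double knockouts and from 0.796 to 2.69 in the Vhl knockouts, against 3.48 to 5.62 (median 4.14) and 1.69 to 5.09 (median 2.702) in the respective controls. Vhl fell by 0.78 ± 0.26 in the double knockouts (adjusted p = 0.018) and fell by 0.85 ± 0.30 in the Vhl knockouts (adjusted p = 0.022), and the added difference of 0.07 ± 0.39 did not pass (adjusted p = 0.94).

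Across all genes, 590 had a positive added difference and 531 a negative one at an adjusted p below 0.05, which are 4.51% and 4.06% of the genes tested. The size was over 2-fold for 206 of these 1121 genes. The changes behind the contrast were far broader. In the double knockouts 2272 genes rose (17.4%) and 2366 fell (18.1%) against their controls, and in the Vhl knockouts 2320 rose (17.7%) and 2556 fell (19.5%). These 2 sets of changes share no animals. Of the genes that rose in the double knockouts, 1233 also rose in the Vhl knockouts, which is 54.3% of the first list and 53.1% of the second, and 1438 fell in both (60.8% and 56.3%), while 55 rose in the double and fell in the Vhl knockouts and 34 did the reverse. The control groups themselves differed in 893 genes (6.82%), so each knockout was read against its own controls only. Left unscaled, the median over all genes moved to 0.37 in the double knockouts and 0.35 in the Vhl knockouts, but to 0.01 for the added difference, so directions in the separate knockouts are relative to that scaling and the added difference is nearly free of it.

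**Figure D1:**
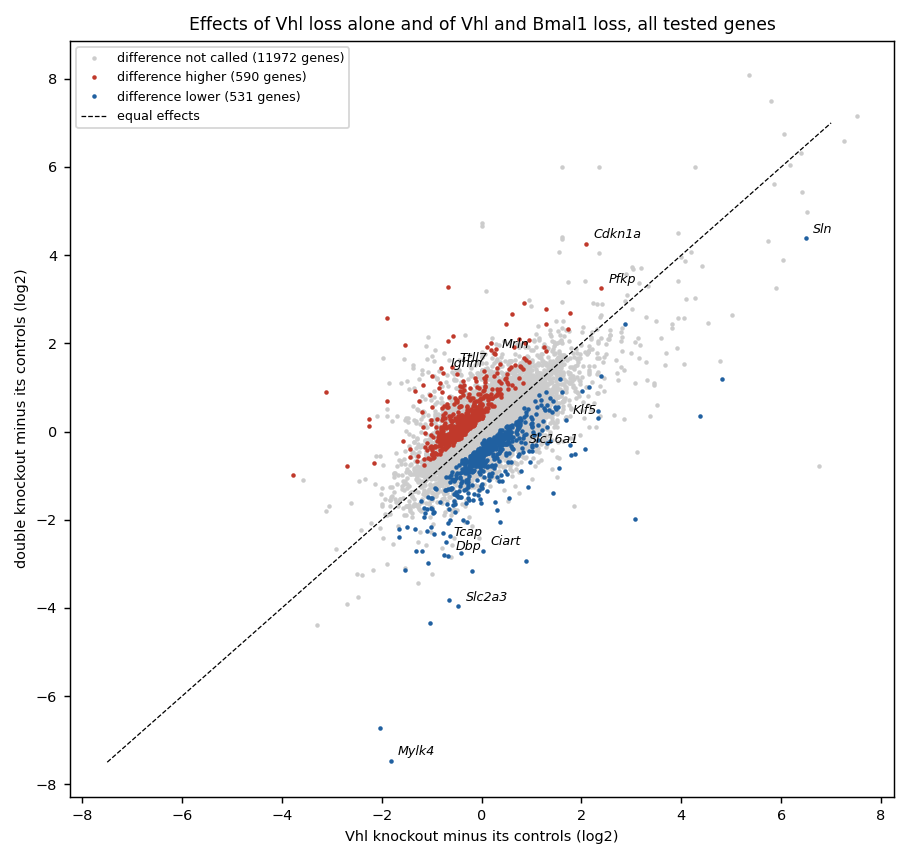
Effect of losing Vhl alone (horizontal axis, log2) against the effect of losing Vhl and Bmal1 (vertical axis, log2) for each of the 13093 genes tested. Red points (590) and blue points (531) mark genes whose added difference was higher or lower, the dashed line marks equal effects, and Mylk4 lies farthest below that line among the named genes.

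The leading genes described here are the 12 highest and 12 lowest that passed, among genes averaging log2 CPM 2 or more whose names are not those of predicted genes or clones. The lowest was Mylk4, which encodes a kinase of the myosin light chain kinase family found in striated muscle (GRCm38 chr13:32700834-32783954, minus strand). Its levels were 2.85, 3.35, 3.55 and 3.91 scaled CPM in the double knockouts, against 576, 607 and 687 as lowest, median and highest in their controls. The Vhl knockouts stood at 138, 209, 150.0 and 121, with 473, 545 and 632 in the Vhl-floxed controls. Both knockouts lay wholly below their controls, and the double knockouts lay wholly below the Vhl knockouts. Mylk4 fell by 1.82 ± 0.10 in the Vhl knockouts and by 7.47 ± 0.15 in the double knockouts, which gives an added difference of −5.65 ± 0.16 (adjusted p = 2.8e-25). A predicted gene, Gm27342, overlaps Mylk4 on the other strand. Of 145 genes examined in detail, 56 have such a neighbour in the GENCODE annotation, and since the strand setting of the counting was not given, the reads of such pairs cannot be told apart.

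Tcap, the Z-disc protein telethonin that links titin to the sarcomere's edge, showed the same order (chr11:98383811-98384953, plus strand). It stood at 366, 352, 435 and 449.9 scaled CPM in the double knockouts and 1129, 1471, 1206 and 1299.5 in the Vhl knockouts, with control ranges of 2206 to 2358 (median 2260.0) and 1764 to 2392 (median 2071). No library of the double knockouts reached any of the Vhl knockouts, and none of the latter reached a control. For Tcap the added difference was −1.79 ± 0.10 (adjusted p = 2.8e-18). Tcap belongs to a list of 23 genes of the strained sarcomere, all tested, of which 4 had a negative added difference (17.4%, against 4.06% of all genes). No member was higher by edgeR's test, DESeq2 or limma, or at an unadjusted p under 0.05. The other 3 were Fhl3 (−0.97 ± 0.11), a LIM-domain protein, Myom2 (−0.63 ± 0.11), an M-band protein, and Xirp2 (−0.32 ± 0.09), an actin-binding protein of the intercalated and myotendinous regions. The Xirp2 call was lost without double knockout 3 or Vhl knockout 4 (adjusted p up to 0.058).

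Among genes of calcium handling, Sln encodes sarcolipin, a small membrane peptide that binds the sarcoplasmic reticulum calcium pump and uncouples ATP use from calcium transport (chr9:53850164-53854560, plus strand). It stood at 292, 209, 190.0 and 168 scaled CPM in the Vhl knockouts and at 97.3, 55.5, 62.8 and 61.4 in the double knockouts. Its control ranges were 1.33 to 3.92 (median 2.01) and 1.74 to 8.06 (median 2.21), so it was high in both knockouts and, in every library, higher in the Vhl knockouts than in the double knockouts. The rise was 6.49 ± 0.32 in the Vhl knockouts and 4.38 ± 0.30 in the double knockouts, an added difference of −2.11 ± 0.48 (adjusted p = 0.0055). Mrln, the gene of myoregulin, another peptide of the same pump, went the other way (chr10:70204664-70219711, plus strand). It stood at 471, 469, 518 and 494 scaled CPM in the double knockouts and 165, 182, 179.7 and 135 in the Vhl knockouts, against 130.4 to 157 (median 142) and 128 to 148 (median 140.2) in the controls. The double knockouts lay wholly above all other groups, and the added difference was 1.53 ± 0.10 (adjusted p = 4.1e-16).

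Of 23 tested calcium-handling genes, 4 had a positive (17.4%, against 4.51% of all genes) and 2 a negative added difference (8.7%, against 4.06%). Jph2, which holds the triadic junctions together, was lower (−0.51 ± 0.11), whereas Hrc, a calcium-binding protein of the reticulum lumen, was higher (0.39 ± 0.10). Ryr1, the release channel, and Trdn, its anchor triadin, were also higher (0.37 ± 0.10 and 0.86 ± 0.23). The Ryr1 call was lost without Vhl knockout 3 (adjusted p up to 0.055) and the Trdn call without double knockout 4 or Vhl knockout 3 (adjusted p up to 0.053). Itpr1, the inositol trisphosphate receptor, is not on that list but was among the lowest genes of the contrast. It stood at 19.1, 17.04, 17.7 and 21.3 scaled CPM in the double knockouts and 42.1, 62.2, 50.8 and 43.6 in the Vhl knockouts, with controls at 34.5 to 40.6 (median 36.4) and 30.2 to 42.5 (median 35.4). Itpr1 rose by 0.50 ± 0.10 in the Vhl knockouts and fell by 0.97 ± 0.10 in the double knockouts, so that the added difference of −1.48 ± 0.14 (adjusted p = 2.5e-10) joined opposite directions.

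**Figure D2:**
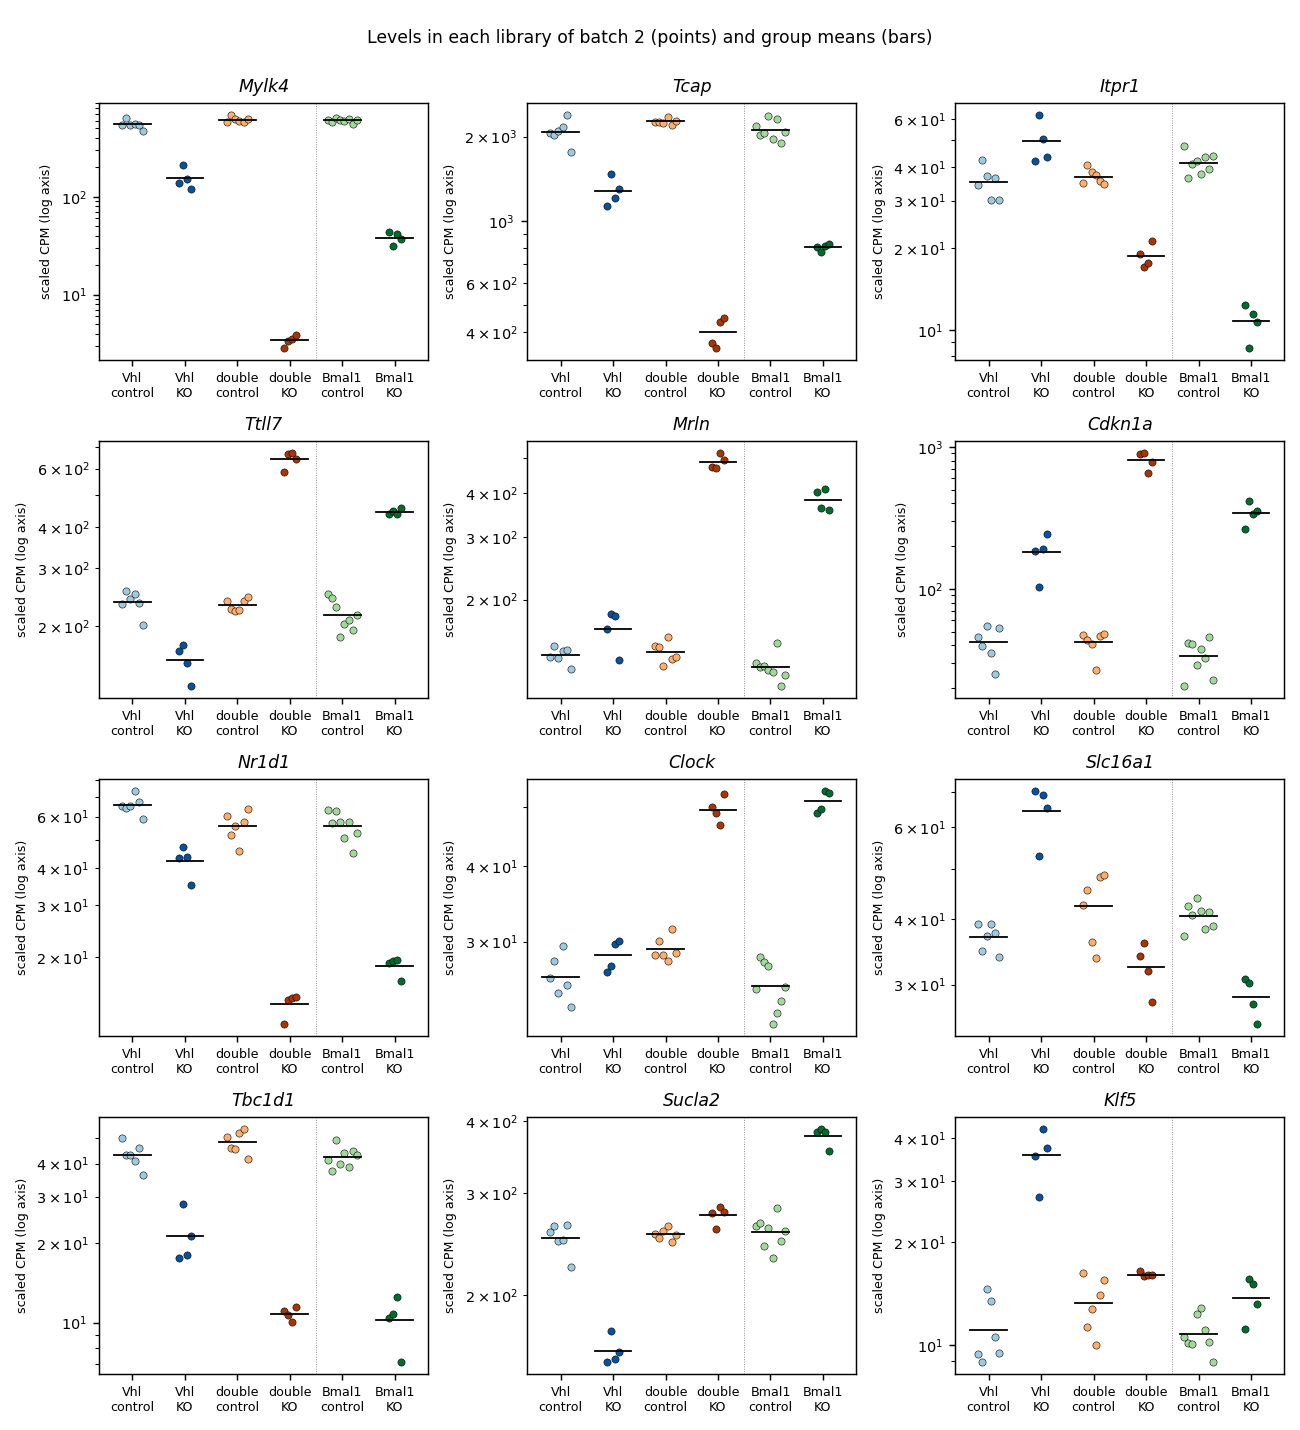
Scaled CPM (log axes) of 12 genes in each library of batch 2, with points for libraries and bars for group means. For Mylk4 and Tcap the 4 double knockouts lie below every other library of the contrast, for Ttll7, Mrln and Cdkn1a above, and for Slc16a1 and Klf5 the Vhl knockouts alone lie high.

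Among the 12 highest genes, Ttll7 had the smallest adjusted p. It encodes a tubulin polyglutamylase (chr3:146852367-146984009, plus strand). Its levels were 586, 665, 670.5 and 641 scaled CPM in the double knockouts and 168, 175, 154 and 131 in the Vhl knockouts, with 223, 232 and 245 and 202, 237 and 255 as lowest, median and highest in the controls of each. The double knockouts lay above all controls and the Vhl knockouts below them. The 2 effects, 1.46 ± 0.07 and −0.58 ± 0.08, thus had opposite signs and the added difference was 2.05 ± 0.11 (adjusted p = 3.6e-20). The same opposition held for Pla2g7, the gene of a secreted phospholipase that cleaves platelet-activating factor (1.11 and −0.83, added difference 1.94 ± 0.19), and for Zfp839, a zinc-finger gene (1.29 and −0.49, added difference 1.78 ± 0.21).

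Cdkn1a, which encodes the cell-cycle inhibitor p21, was raised in both knockouts (chr17:29090976-29100727, plus strand). It stood at 886, 907, 652 and 779 scaled CPM in the double knockouts, 186, 103, 190.4 and 244 in the Vhl knockouts and 26.9 to 47.6 (median 44.9) or 25.2 to 55.1 (median 42.8) in the controls. All 4 double knockouts lay above all 4 Vhl knockouts, which lay above all controls. The added difference was 2.18 ± 0.33 (adjusted p = 6.8e-05). Of the 19 tested genes of a p53 target list, 9 lay above 0, and 1 passed in each direction (5.26% each way, against 4.51% and 4.06% of all genes). Cdkn1a was the higher one and Phlda3, a pleckstrin-homology protein, the lower one (−0.85 ± 0.13). The median over the list was −0.13.

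The other leading genes with a positive added difference were Dupd1, a dual-specificity phosphatase of muscle (2.06 ± 0.27), Atp8a2, a phospholipid flippase (1.95 ± 0.31), Gramd1b, a cholesterol transfer protein (1.42 ± 0.22), Mdga1, a surface protein with immunoglobulin domains (1.45 ± 0.35), Actc1, the cardiac actin of developing and regenerating muscle (1.47 ± 0.30), and Nqo1, described with the stress genes. Ighm, the heavy chain of IgM, was also among them (2.10 ± 0.36, adjusted p = 0.00034). Its levels were 89.2, 97.7, 175 and 114 scaled CPM in the double knockouts and 37.1, 62.6, 27.8 and 32.001 in the Vhl knockouts. Igkc, the kappa light chain, ranged from 3.65 to 26.3 CPM in the double knockouts, with the highest value in double knockout 3, which also had the most Ighm, and from 1.55 to 43.8 in the Vhl knockouts. The B-cell genes Cd79a, Cd79b and Ms4a1 reached at most 0.101, 0.356 and 0.144 CPM in any double knockout. The 3 of 11 lymphocyte markers that passed the filter were Ighm itself, Igkc and Cd74. Their sum lay between 122 and 231 scaled CPM in the double knockouts and between 62.3 and 210.001 in the Vhl knockouts. Igkc (−1.13) and Cd74 (−0.84) had added differences below 0 that did not pass. The part of lymphocytes in the Ighm difference was not tested. The other leading genes with a negative added difference were Snai3, a zinc-finger repressor (−1.91 ± 0.38), Rasd2, a small GTPase (−1.62 ± 0.20), Ip6k3, an inositol hexakisphosphate kinase of muscle (−1.62 ± 0.25), Otub2, a deubiquitinase (−1.50 ± 0.25), and Hist1h4i, a histone H4 gene with near-identical copies (−1.52 ± 0.24). The clock genes Dbp, Nr1d2 and Hlf completed the 12 lowest.

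Of the lists plotted by share called, the clock output genes with E-boxes had the largest share of negative added differences. All 13 genes of that list were tested, and 8 were lower (61.5%, against 4.06% of all genes) and 1 higher. Their median was −0.92 for the added difference, −1.44 in the double knockouts and −0.36 in the Vhl knockouts, beside medians over all genes of −0.0029, 0.0142 and 0.0086. In the Vhl knockouts 7 of the 13 had fallen and 2 had risen.

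The promoters of 3 genes are shown because they carry the range found among the changed genes: Ciart, an E-box output with the lowest added difference of its list; Slc16a1, a lactate transporter described with glucose metabolism; and Mylk4, the gene with the largest decrease. They were picked after their values were seen. Each is read 5′ to 3′ on the gene's own strand, from RefSeq on GRCm38.p6. The Slc16a1 and Mylk4 stretches are the 250 bases up to the RefSeq start. The Ciart stretch (227 bases) stops 23 bases before that start, where the GENCODE entry of the gene begins. Capitals mark the E-box CACGTG, which reads the same on both strands. The regions are chr3:95882252-95882478 on the minus strand for Ciart, chr3:104638414-104638663 on the plus strand for Slc16a1 and chr13:32783965-32784214 on the minus strand for Mylk4.
Ciart: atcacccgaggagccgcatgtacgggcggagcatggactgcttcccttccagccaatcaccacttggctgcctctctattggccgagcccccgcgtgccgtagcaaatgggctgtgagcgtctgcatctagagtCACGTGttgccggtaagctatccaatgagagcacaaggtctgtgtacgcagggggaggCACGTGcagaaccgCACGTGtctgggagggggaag
Slc16a1: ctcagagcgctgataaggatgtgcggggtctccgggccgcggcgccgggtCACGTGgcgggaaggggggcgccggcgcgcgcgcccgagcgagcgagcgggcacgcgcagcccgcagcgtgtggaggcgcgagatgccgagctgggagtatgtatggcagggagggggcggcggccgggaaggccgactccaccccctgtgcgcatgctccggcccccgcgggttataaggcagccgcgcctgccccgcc
Mylk4: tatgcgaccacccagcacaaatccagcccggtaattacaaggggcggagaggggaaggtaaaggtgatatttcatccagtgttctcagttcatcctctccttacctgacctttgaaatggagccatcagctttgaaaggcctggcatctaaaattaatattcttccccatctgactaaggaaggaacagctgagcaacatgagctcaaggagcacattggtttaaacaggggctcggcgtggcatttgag
Counted from the RefSeq start, Ciart has 3 E-boxes, which begin at −116, −58 and −44, and Slc16a1 has 1 at −200. Mylk4 has none in this window, which says only that these letters are not in these 250 bases. Of the 9522 tested genes that matched a promoter in the table, 956 (10%) had the motif. It was present in 37 of 440 genes with a positive added difference (8.41%), in 52 of 407 with a negative one (12.8%) and in 4 of 10 E-box clock outputs (40%).

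Ciart, a repressor that acts on CLOCK and BMAL1, was counted thinly, with 4 to 7 counts per double knockout. It stood at 0.658, 0.5097, 0.308 and 0.4695 scaled CPM in the double knockouts and 3.78, 1.85, 2.17 and 2.82 in the Vhl knockouts, with controls at 1.95 to 4.21 (median 3.196) and 1.89 to 3.397 (median 2.38). The double knockouts alone were low, and the Vhl knockouts overlapped their controls. For Ciart the added difference was −2.73 ± 0.46 (adjusted p = 4.3e-05). Dbp, a PAR bZIP transcription factor and classic E-box target, was low in both knockouts, at 3.84, 2.55, 3.93 and 3.52 scaled CPM in the double knockouts and 12.5, 11.2, 13.8 and 16.3 in the Vhl knockouts against 18.5 to 28.5 (median 23.9) and 16.8 to 25.96 (median 21.1) in the controls. Its added difference was −2.15 ± 0.25 (adjusted p = 3e-07), and Sphk2 overlaps it on the other strand.

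Nr1d1, the gene of REV-ERBα, stood at 11.8, 14.3, 14.5 and 14.6 scaled CPM in the double knockouts and 43.4, 47.4, 43.7 and 35.2 in the Vhl knockouts, against 45.7 to 63.5 (median 56.7) and 59.02 to 73.4 (median 65.03) in the controls. The double knockouts were wholly below the Vhl knockouts, and the added difference was −1.38 ± 0.13 (adjusted p = 1.6e-10). Thra overlaps Nr1d1 on the other strand. Nr1d2, the gene of REV-ERBβ, had an added difference of −1.76 ± 0.18, with 18.7, 11.6, 15.3 and 11.6 scaled CPM in the double knockouts and 37.3, 60.97, 39.9 and 35.98 in the Vhl knockouts. The PAR bZIP factors Hlf (−1.65 ± 0.21) and Tef (−0.92 ± 0.11) were lower too. Bhlhe40, a repressor that is also a HIF target, rose in the Vhl knockouts (0.59 ± 0.10) and not in the double knockouts (−0.12 ± 0.10, adjusted p = 0.4), an added difference of −0.71 ± 0.15. Per2, a core repressor, was lower by a call lost in 11 of 20 omissions of 1 library (adjusted p up to 0.1).

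Among 6 tested genes that activate the clock or are repressed by REV-ERB, 3 had a positive added difference (50%, against 4.51% of all genes). For 1 it was negative (16.7%, against 4.06%), and the median was 0.69. Clock, the partner of BMAL1, stood at 49.98, 49.002, 46.8 and 52.5 scaled CPM in the double knockouts and 26.8, 27.3, 29.8 and 30.1 in the Vhl knockouts, against 27.9 to 31.5 (median 28.7) and 23.4 to 29.5 (median 25.8) in the controls. The double knockouts were above every other library, and the added difference was 0.64 ± 0.11 (adjusted p = 7.1e-05). Nfil3, a repressor of the PAR bZIP target sites, was higher (1.06 ± 0.22), and so was Cry1, a core repressor (0.73 ± 0.21, lost without double knockout 4, Vhl-floxed control 2 or Vhl knockout 3 (adjusted p up to 0.055)). Rora, a receptor that activates Arntl, was lower (−0.51 ± 0.10). The list's median was 0.64 in the double knockouts and −0.10 in the Vhl knockouts.

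**Figure D3:**
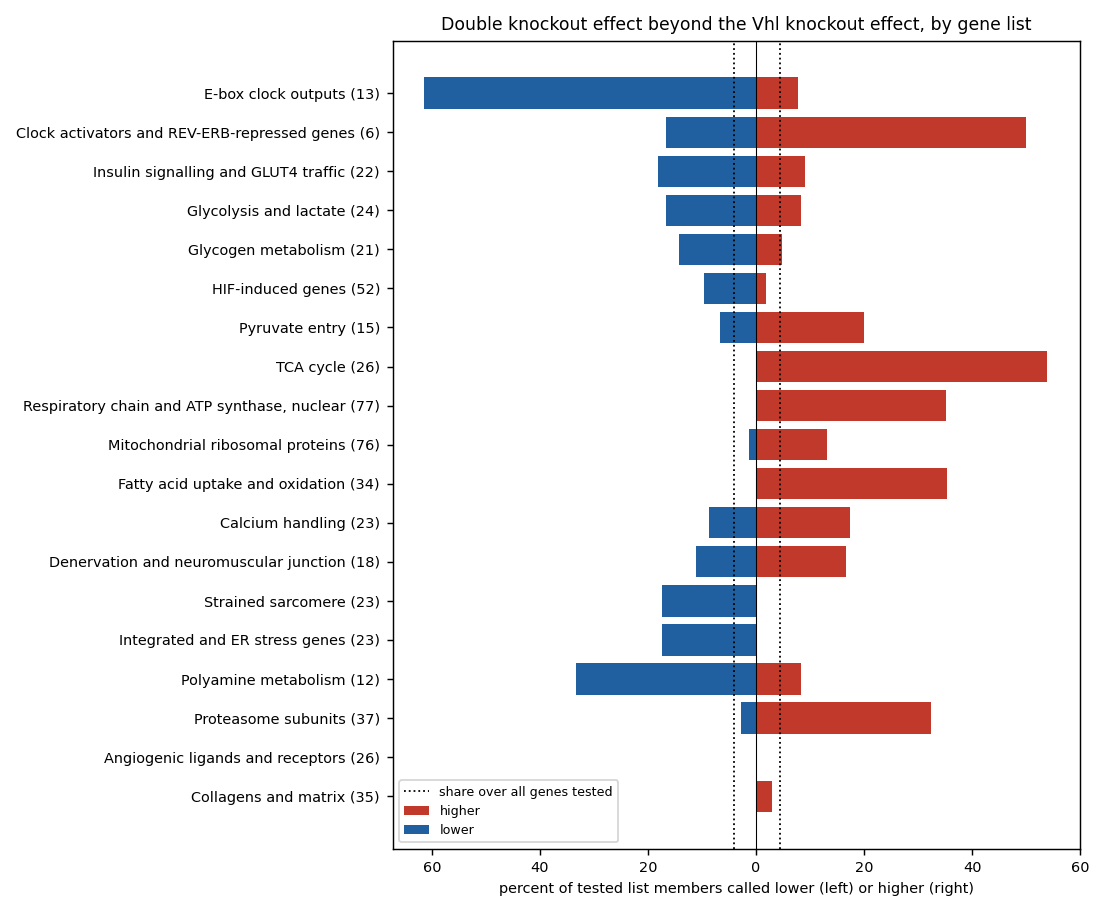
Percent of the tested members of each gene list whose added difference was higher (red, right) or lower (blue, left), with the number tested in parentheses. Dotted lines mark the shares over all genes, 4.51% higher and 4.06% lower, and the bars of E-box clock outputs (61.5% lower) and of TCA cycle genes (53.8% higher) reach farthest.

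Among genes of glucose handling Slc2a3, which encodes the glucose transporter GLUT3, stood at 0.1096, 0.291, 0.231 and 0.313 scaled CPM in the double knockouts, 12 counts over 4 libraries, and at 3.18, 3.39, 3.69 and 2.82 in the Vhl knockouts. Its controls lay at 2.83 to 5.91 (median 3.72) and 3.65 to 5.797 (median 4.18), so the double knockouts were low and apart from all other groups. The added difference was −3.50 ± 0.47 (adjusted p = 6e-07), and Slc2a3 was the 1 glucose transporter gene of 6 tested that passed (16.7% lower, against 4.06% of all genes). Hk2, the hexokinase of insulin-sensitive tissue, followed at 169.6, 179, 179.6 and 188 scaled CPM in the double knockouts and 319, 289.8, 273 and 311 in the Vhl knockouts, against 448 to 575 (median 474) and 352 to 607 (median 367) in the controls. It was lowest in the double knockouts, with an added difference of −0.96 ± 0.24 (adjusted p = 0.011).

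Of the monocarboxylate transporters, Slc16a1 reversed between genotypes. Slc16a1, the gene of MCT1, which moves lactate and pyruvate across the membrane, stood at 70.4, 52.96, 69.2 and 65.2 scaled CPM in the Vhl knockouts and 33.98, 36.1, 31.9 and 27.8 in the double knockouts, against 33.9 to 39.2 (median 37.4) and 33.7 to 48.6 (median 44.001) in the controls. The Vhl knockouts were high and apart, and the double knockouts lay in the lower end of their controls' range or below it. It rose by 0.80 ± 0.09 in the former and fell by 0.38 ± 0.09 in the latter, and the added difference was −1.19 ± 0.13 (adjusted p = 5.3e-09). Slc16a3, the gene of the lactate exporter MCT4 and a HIF target, was likewise lower in every double knockout than in every Vhl knockout. It stood at 190.2, 227, 239 and 215 scaled CPM in the Vhl knockouts and 141, 132, 135 and 105 in the double knockouts. Its added difference was −0.77 ± 0.11 (adjusted p = 2.8e-06). Of 24 genes of glycolysis and lactate, 4 had negative (16.7%, against 4.06% of all genes) and 2 positive added differences (8.33%, against 4.51%), and the median was 0.02. Pfkp, the platelet-type phosphofructokinase, was one of the higher genes. It reached 47.02, 35.02, 34.8 and 38.3 scaled CPM in the double knockouts and 24.8, 18.7, 27.7 and 23.01 in the Vhl knockouts, against 3.31 to 5.001 (median 3.86) and 3.13 to 5.86 (median 4.37) in the controls, an added difference of 0.85 ± 0.21 (adjusted p = 0.0062). Pfkm, the muscle phosphofructokinase, was lower (−0.32 ± 0.09, lost without double-floxed control 6 or double knockout 2 (adjusted p up to 0.067)), and Pkm, pyruvate kinase, higher (0.26 ± 0.08, lost in 10 of 20 omissions of 1 library (adjusted p up to 0.11)).

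Of 22 genes of insulin signalling and GLUT4 traffic, 4 were lower (18.2%, against 4.06% of all genes) and 2 higher (9.09%, against 4.51%), with a median of −0.05. Tbc1d1, a Rab GTPase-activating protein that holds GLUT4 vesicles back until it is phosphorylated, was the lowest. It stood at 11.1, 10.7, 10.02 and 11.4 scaled CPM in the double knockouts and 17.5, 28.02, 18.1 and 21.3 in the Vhl knockouts, against 41.5 to 54.1 (median 48.03) and 36.1 to 49.9 (median 43.2) in the controls. Both knockouts were below their controls and the double knockouts were lowest, with an added difference of −1.14 ± 0.16 (adjusted p = 2.6e-06). Akt1 (−0.65 ± 0.11) and the syntaxin gene Stx4a, whose product takes part in GLUT4 vesicle fusion (−0.48 ± 0.10), had risen in the Vhl knockouts and were lower in the contrast. Pik3ca, the catalytic kinase subunit (0.42 ± 0.10), and Rab13, a Rab of vesicle traffic (0.83 ± 0.22), were higher. In glycogen metabolism 3 of 21 genes were lower (14.3%, against 4.06% of all genes) and 1 higher (4.76%, near the 4.51% of all genes). Phkg1, the catalytic subunit of phosphorylase kinase, was higher (0.54 ± 0.13), and Ugp2, which makes UDP-glucose, was lower (−0.43 ± 0.11), as were Stbd1, a glycogen-binding protein (lost in 5 of 20 omissions of 1 library (adjusted p up to 0.12)), and Pgm2, a phosphoglucomutase (lost in 7 of 20 omissions of 1 library (adjusted p up to 0.1)).

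Genes known to be induced by HIF rose in both knockouts. Of 52 tested, 38 rose and 2 fell in the Vhl knockouts, and 34 rose and 6 fell in the double knockouts, with medians of 0.85 and 0.84. The added difference was negative for 5 (9.62%, against 4.06% of all genes), positive for 1 (1.92%, against 4.51%) and had a median of −0.05. The 5 were Slc2a3, Hk2, Slc16a3, Bhlhe40 and Rora, and the 1 was Pfkp, all described above. The 26 angiogenic ligands and receptors had 0 genes past the threshold in the contrast by edgeR's test, by DESeq2 and by limma, with 2 in each direction at an unadjusted p under 0.05, although 18 rose and 2 fell in each knockout. Among 14 HIF subunits and regulators, 2 were higher (14.3%, against 4.51% of all genes). These were Crebbp, a coactivator (0.38 ± 0.10, lost without double knockout 4 or Vhl knockout 3 (adjusted p up to 0.073)), and Hif1an, the asparagine hydroxylase that restrains HIF (0.40 ± 0.12, lost in 10 of 20 omissions of 1 library (adjusted p up to 0.12)). Without Vhl knockout 2 and Vhl-floxed control 6, a pair left out after seeing the data because non-muscle transcripts stood high in each, 6 HIF-induced genes were lower and 6 higher.

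Nuclear genes of mitochondrial oxidation were higher in the contrast, which here means that the medians of these lists were nearer to 0 or higher in the double knockouts than in the Vhl knockouts. Of 26 TCA cycle genes, 14 had a positive added difference (53.8%, against 4.51% of all genes). No member was lower by edgeR's test, by DESeq2 or by limma, and 0 were lower at an unadjusted p under 0.05. The list's median was −0.62 in the Vhl knockouts, where 23 fell, and −0.34 in the double knockouts, where 16 fell and 1 rose, and 0.31 for the added difference. Sucla2, a subunit of succinate-CoA ligase, stood at 153, 174, 155 and 159.6 scaled CPM in the Vhl knockouts and 277, 260.4, 284 and 278 in the double knockouts, against 224 to 264 (median 253) and 247 to 263 (median 254) in the controls. Only the Vhl knockouts were apart from their controls, and low. The added difference was 0.76 ± 0.08 (adjusted p = 5.3e-09). Cs, citrate synthase, was low in both: 149.9, 184, 128 and 151 scaled CPM in the Vhl knockouts and 215, 189, 196 and 211 in the double knockouts, with controls at 224 to 279 (median 257) and 219 to 262 (median 246). Its added difference was 0.45 ± 0.11 (adjusted p = 0.0035). The malic enzymes Me3 (1.17 ± 0.13) and Me1 (0.67 ± 0.10), the aspartate aminotransferase Got1 (0.60 ± 0.11) and the isocitrate dehydrogenase subunit Idh3b (0.48 ± 0.11) were further members.

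Of 77 nuclear genes of the respiratory chain and ATP synthase, 27 were higher (35.1%, against 4.51% of all genes) and 0 lower by edgeR's test. By DESeq2 or limma 0 were lower, with 1 lower at an unadjusted p under 0.05. In the Vhl knockouts 62 of them had fallen and in the double knockouts 30, with medians of −0.36 and −0.12. The added differences were modest, with a median of 0.25. Cycs, cytochrome c, and Cox7b, a subunit of cytochrome oxidase, were the highest (0.94 ± 0.18 and 0.91 ± 0.21), and the complex III core protein Uqcrc2 had the smallest adjusted p (0.49 ± 0.08, adjusted p = 7.1e-05). Cox7c (0.74 ± 0.17), Ndufs4 (0.53 ± 0.10), Cox5a (0.47 ± 0.09) and the ATP synthase subunit Atp5o (0.46 ± 0.08) were also higher. Of 76 mitochondrial ribosomal protein genes, 10 were higher (13.2%, against 4.51% of all genes), led by Mrpl39 (0.77 ± 0.16), and 1 lower (1.32%, against 4.06%).

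Transcripts of the mitochondrial genome did not follow. They took 19.7% ± 3.06 of all counts (SD, n = 4) in the double knockouts against 27.4% ± 2.66 (SD, n = 6) in their controls, a drop of 7.68 percentage points, with p = 0.00952 in an exact permutation test, the smallest it can give (two-sided, adjusted p = 0.0286 over 3 comparisons). In the Vhl knockouts the share was 32.2% ± 3.50 (SD, n = 4) against 37.1% ± 2.30 (SD, n = 6), 4.93 points lower (exact p = 0.0286, adjusted p = 0.0429), and that call was lost in 7 of the 10 omissions of 1 library, with differences between −5.766 and −3.225 points. Of 10 mitochondrial genes tested, mt-Co1, a subunit of cytochrome oxidase, was lower in the contrast (−0.64 ± 0.17) and 9 did not pass (10% lower, against 4.06% of all genes). The part of these drops in the change of the nuclear genes was not tested. With mitochondrial genes left out, 1116 genes were called in place of 1121.

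Pyruvate entry genes, 15 tested, had a median of −0.01, with 7 above 0. Of these genes 3 were higher (20%, against 4.51% of all genes) and 1 lower (6.67%, against 4.06%). The pyruvate dehydrogenase subunits Pdha1 (0.38 ± 0.09), Dld (0.41 ± 0.09) and Pdhx (0.58 ± 0.15) were higher. Mpc1, a subunit of the carrier that brings pyruvate into mitochondria, was lower. It stood at 20.2, 11.9, 15.6 and 13.8 scaled CPM in the double knockouts and 35.1, 34.9, 39.2 and 34.5 in the Vhl knockouts, against 37.6 to 49.5 (median 42.7) and 39.8 to 60.005 (median 49.1) in the controls. All 4 double knockouts lay below all other libraries of the contrast, and the added difference was −1.07 ± 0.16 (adjusted p = 8.9e-06).

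Fatty acid uptake and oxidation gave 12 positive added differences among 34 genes (35.3%, against 4.51% of all genes). By edgeR's test, DESeq2 or limma 0 were negative, with 1 negative at an unadjusted p under 0.05. The list's median was −0.44 in the Vhl knockouts, where 21 fell and 6 rose, and 0.05 in the double knockouts, where 9 fell and 12 rose. Acadm, the medium-chain acyl-CoA dehydrogenase, stood at 194, 144, 153 and 198 scaled CPM in the Vhl knockouts and 346, 368, 308 and 352 in the double knockouts, with controls at 245 to 301 (median 286) and 308 to 341 (median 321). The Vhl knockouts were low and apart, and the double knockouts overlapped their controls. For Acadm the added difference was 0.80 ± 0.10 (adjusted p = 9.6e-08). Plin5, which coats lipid droplets next to mitochondria, stood at 48.6, 37.4, 33.2 and 31.5 scaled CPM in the double knockouts, above all controls (18.7 to 26.2 (median 21.3)), and at 17.5, 12.9, 11.4 and 17.99 in the Vhl knockouts. Its added difference was 1.21 ± 0.21 (adjusted p = 0.00029). Etfdh (0.61 ± 0.12) and Etfa (0.64 ± 0.13) of the electron transfer route, the trifunctional protein genes Hadha (0.58 ± 0.13) and Hadhb (0.56 ± 0.12), the enoyl-CoA enzymes Decr1 (0.60 ± 0.12) and Eci1 (0.65 ± 0.17), and the transporter Slc27a1 (0.91 ± 0.23) were higher as well. Acot1, an acyl-CoA thioesterase with close relatives, was higher by a call lost without Vhl knockout 3 (adjusted p up to 0.097). In branched-chain amino acid breakdown, by contrast, 18 of 22 genes fell in the Vhl knockouts and 19 in the double knockouts. There 1 gene, Acad8 (0.61 ± 0.15), passed in the contrast (4.55%, against 4.51% of all genes).

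**Figure D4:**
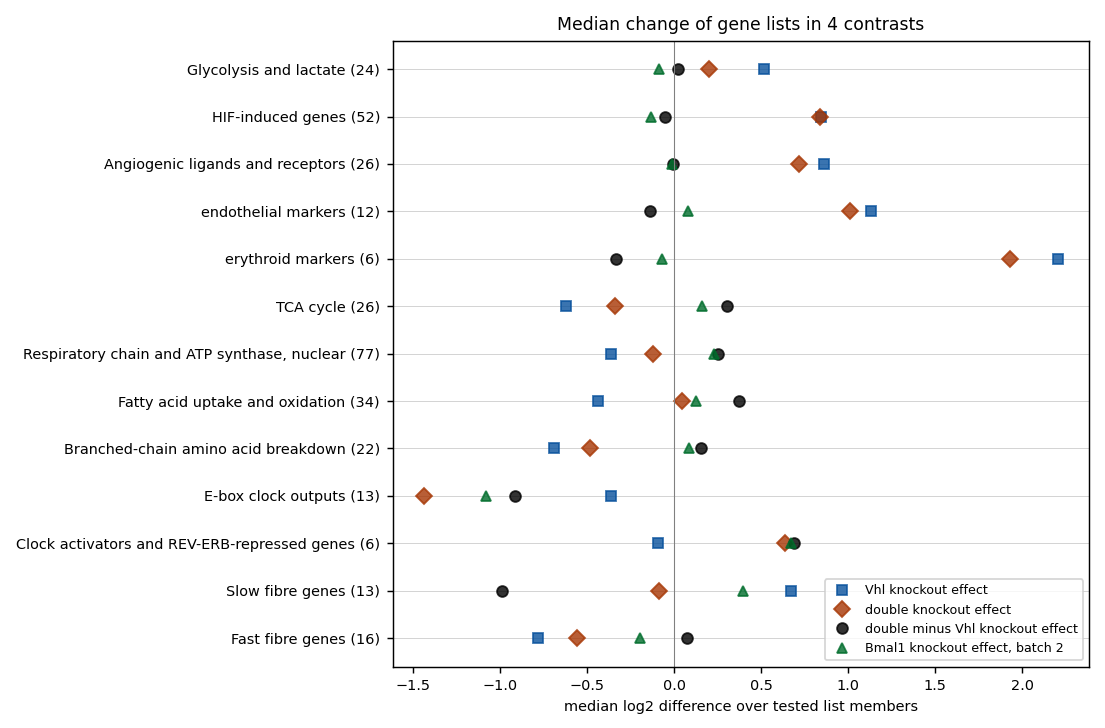
Median log2 difference over the tested members of 13 lists in the Vhl knockouts (squares), the double knockouts (diamonds), the added difference (circles) and the Bmal1 knockouts with Vhl intact (triangles), with the number tested in parentheses. HIF-induced, angiogenic and endothelial genes lie at like values in both Vhl-null groups, while the TCA cycle, respiratory chain and fatty acid lists lie lower in the Vhl knockouts.

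Fast and slow fibre genes differed in their medians, 0.07 over 16 fast and −0.99 over 13 slow genes. In fast fibre genes 14 of 16 fell in each knockout, and 2 had positive and 2 negative added differences (12.5% each way, against 4.51% and 4.06% of all genes). Myh4, the myosin heavy chain of the fastest fibres, was higher (0.45 ± 0.09), Tnnt3, fast troponin T, was higher by a call lost in 6 of 20 omissions of 1 library (adjusted p up to 0.097), and Tpm1, tropomyosin, was lower like Mylk4 (−0.30 ± 0.09). Summed over 10 fast-fibre markers, levels lay between 98336 and 101466 scaled CPM in the double knockouts and between 74211 and 97068 in the Vhl knockouts. In slow fibre genes 2 of 13 were lower (15.4%, against 4.06% of all genes) and 3 lay above 0. In the Vhl knockouts 9 of the 13 rose and 0 fell, with a median of 0.67, and in the double knockouts 2 rose and 1 fell, with a median of −0.09. All 9 slow-fibre markers had an added difference below 0 (median −1.13), 1 of which passed (11.1%, against 4.06% of all genes). Car3, the carbonic anhydrase of slow fibres, was one (−1.01 ± 0.19). The other was Myl3, the slow myosin light chain, at 1065, 209, 428 and 983 scaled CPM in the Vhl knockouts and 305, 396, 276 and 286 in the double knockouts, an added difference of −1.31 ± 0.38 lost without double knockout 3, double knockout 4, Vhl knockout 1 or Vhl knockout 4 (adjusted p up to 0.11). Pth1r overlaps Myl3 on the other strand. The Vhl knockouts were spread widely here, with slow-fibre markers summing to between 701 and 4101 scaled CPM, and without Vhl knockout 2 and Vhl-floxed control 6 the count of lower slow fibre genes was 9, and it was 5 by DESeq2.

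Genes of denervation and the neuromuscular junction moved in both directions, with 12 of 18 above 0 and a median of 0.29. Of 18 genes that mark denervation or the junction, 3 were higher (16.7%, against 4.51% of all genes) and 2 lower (11.1%, against 4.06%). Chrnb1, a subunit of the acetylcholine receptor, stood at 37.6, 24.8, 28.4 and 31.2 scaled CPM in the double knockouts and 10.7, 18.5, 10.5 and 13.3 in the Vhl knockouts, against 10.7 to 13.4 (median 11.5) and 10.8 to 16.1 (median 12.96) in the controls. The double knockouts alone were high, with an added difference of 1.32 ± 0.17 (adjusted p = 2.5e-07). Chrna1, the agonist-binding subunit, and Colq, the collagen tail of acetylcholinesterase, rose in both knockouts and more in the double knockouts (0.92 ± 0.21 and 1.16 ± 0.25). Dok7, the activator of the MuSK kinase, rose in the Vhl knockouts, fell in the double knockouts and was lower in the contrast (−1.23 ± 0.22), and Runx1, a factor raised by denervation, was lower by a call lost without Vhl knockout 1 or Vhl knockout 3 (adjusted p up to 0.08). Of 6 tested satellite-cell markers, 3 lay above 0 and 2 were higher (33.3%, against 4.51% of all genes). Chodl was higher (0.68 ± 0.16), and so was Pax7, the defining factor, by a call lost in 12 of 20 omissions of 1 library (adjusted p up to 0.13). Cdh15 (−0.17), Vcam1 (−0.17) and Des (−0.01) lay below 0, and Myf5 (1.01) did not pass.

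Among stress genes Nqo1, the quinone reductase of the NRF2 programme, stood out (chr8:107388225-107403206, minus strand). It stood at 37.8, 27.7, 26.5 and 27.5 scaled CPM in the double knockouts and 11.3, 10.5, 10.97 and 11.2 in the Vhl knockouts, against 11.2 to 18.7 (median 14.2) and 12.7 to 17.03 (median 13.9) in the controls. The double knockouts lay above all other libraries of the contrast and the Vhl knockouts at the low end, and the added difference was 1.40 ± 0.16 (adjusted p = 2.1e-08). The list it belongs to was mixed, with 2 of 20 higher (10%, against 4.51% of all genes) and 4 lower (20%, against 4.06%). Gstm7, a glutathione transferase, was higher (1.82 ± 0.42), and Gpx1, the glutathione peroxidase (−0.60 ± 0.10), and Gstm1 (−0.48 ± 0.12) were lower. Gstm genes have close relatives between which tags can be split. Txnrd1, thioredoxin reductase, was lower by a call lost without double knockout 1, double knockout 3 or Vhl knockout 1 (adjusted p up to 0.13).

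Integrated and endoplasmic reticulum stress genes were lower in 4 of 23 (17.4%, against 4.06% of all genes). The count of higher members was 0 by edgeR's test, DESeq2 and limma, and 2 at an unadjusted p under 0.05. The lower ones were Xbp1 (−0.98 ± 0.13), Ddit3, the gene of CHOP (−0.91 ± 0.18), and Herpud1, a degradation factor of the reticulum (−0.84 ± 0.10), with Slc3a2, an amino acid transporter chain (lost without Vhl knockout 4 (adjusted p up to 0.053)). Of 19 heat shock genes, 3 were higher (15.8%, against 4.51% of all genes) and 2 lower (10.5%, against 4.06%). The higher ones included Hspd1 (lost in 5 of 20 omissions of 1 library (adjusted p up to 0.14)) and the lower ones Hspb1 (lost in 5 of 20 omissions of 1 library (adjusted p up to 0.078)). Tsc22d3, a gene that glucocorticoids induce, was lower (−0.70 ± 0.14), as the 1 gene of 17 on that list (5.88%, against 4.06% of all genes). The atrophy list had Map1lc3b, an autophagosome protein, higher (0.44 ± 0.10) and Eif4ebp1, the translation repressor, lower (−0.49 ± 0.12) among 20. That is 5% each way, near the shares over all genes (4.51% and 4.06%).

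Proteasome subunit genes were higher in 12 of 37 (32.4%, against 4.51% of all genes) and lower in 1 (2.7%, against 4.06%). Psmc3 (0.65 ± 0.09) and Psmd1 (0.58 ± 0.11) had the smallest adjusted p among them, and Psmd8 was the lower one (−0.41 ± 0.11). In the Vhl knockouts 6 had risen and 7 fallen, and in the double knockouts 19 had risen and 1 fallen. Of 78 cytosolic ribosomal protein genes 7 were lower (8.97%, against 4.06% of all genes), among them Rps14 (−0.48 ± 0.11). By edgeR's test 0 were higher, with 4 higher by DESeq2, 3 by limma and 9 at an unadjusted p under 0.05. Without Vhl knockout 2 and Vhl-floxed control 6 the counts by edgeR's test were 6 lower and 10 higher. Many of these genes have processed copies in the genome.

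Polyamine metabolism had 4 of 12 genes lower (33.3%, against 4.06% of all genes) and 1 higher (8.33%, against 4.51%). Amd1 and Amd2, near-identical copies of the decarboxylase that feeds spermidine and spermine synthesis, were both lower (−0.58 ± 0.17 and −1.35 ± 0.19), and their reads can be split between them. Amd1 stood at 142, 163, 202 and 157 scaled CPM in the double knockouts, 253, 318, 245 and 205 in the Vhl knockouts and 334 to 395 (median 364) or 303 to 497 (median 367) in the controls, and its call was lost without double knockout 1, double knockout 4 or Vhl knockout 2 (adjusted p up to 0.064). Smox, spermine oxidase, rose in the Vhl knockouts (1.01 ± 0.12) and did not pass in the double knockouts (0.20 ± 0.12, adjusted p = 0.19), which gave −0.81 ± 0.17. Sms, spermine synthase, was lower by a call lost in 8 of 20 omissions of 1 library (adjusted p up to 0.18). Oaz2, an antizyme that restrains polyamine synthesis, was higher (0.79 ± 0.11). In NAD synthesis, 2 of 14 genes were lower (14.3%, against 4.06% of all genes) and 1 higher (7.14%, against 4.51%). The lower ones were Nmrk2, the nicotinamide riboside kinase of muscle (−1.38 ± 0.39, lost without double knockout 2, double knockout 3, Vhl knockout 1 or Vhl knockout 4 (adjusted p up to 0.091)), and Nampt, the rate-limiting enzyme of salvage (lost without double knockout 1 or Vhl knockout 1 (adjusted p up to 0.11)). Nmnat3, a mitochondrial adenylyltransferase, was higher by a call lost in 12 of 20 omissions of 1 library (adjusted p up to 0.12).

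Endothelial and erythroid markers rose in both knockouts. In whole muscle, a change in the number of cells of a type and a change in RNA per cell cannot be told apart. Of 12 endothelial markers, 11 rose in the double knockouts and all 12 in the Vhl knockouts. The added difference was negative for 1 (8.33%, against 4.06% of all genes), Pecam1 (−0.48 ± 0.13, lost without Vhl knockout 3 (adjusted p up to 0.078)). All 6 erythroid markers rose in each knockout, summing to between 3149 and 5278 scaled CPM in the double knockouts and between 5826 and 7034 in the Vhl knockouts, against 868 to 1550 in the controls of both. In the contrast 0 passed by edgeR's test, DESeq2 or limma, or at an unadjusted p under 0.05. Of 35 collagen and matrix genes, 15 rose in the double knockouts and 21 in the Vhl knockouts. The added difference was positive for 1 (2.86%, against 4.51% of all genes), Mmp14, by a call lost in 5 of 20 omissions of 1 library (adjusted p up to 0.1). Of 10 macrophage markers, 6 rose in the Vhl knockouts and 1 in the double knockouts, and the added difference lay above 0 for 1, with a median of −0.43. None passed by edgeR's test, whereas 1 was lower by DESeq2 and 1 at an unadjusted p under 0.05. A few libraries stood apart: Vhl knockout 2 had the most Igkc of the contrast (43.8 CPM) and the lowest slow-fibre sum, Vhl-floxed control 6 the most adipocyte marker transcript, and double knockout 3 the most Ighm. Leaving out Vhl knockout 2 and Vhl-floxed control 6 together gave 1623 called genes in place of 1121. The counts of higher genes then were 8 for calcium handling and 6 for glycolysis and lactate, and the count of lower collagen and matrix genes was 6. Every gene examined in detail whose added difference is given above kept its direction. Cdh15, Vcam1 and Des were not among the genes examined in this way.

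The same deletion of Bmal1 with Vhl intact was measured in other animals of the same batch, and was set beside the added difference. Bmal1 knockouts (4 animals) and controls with floxed Bmal1 alone (8 animals), all on the high-fat diet, gave 909 genes higher (6.94%) and 911 lower (6.96%). Of the 590 genes with a positive added difference, 225 (38.1%) had risen there and 14 had fallen, and of the 531 with a negative one 238 (44.8%) had fallen and 8 had risen. These are 24.8% and 26.1% of the Bmal1 lists. In batch 1, 5 Bmal1 knockouts and 7 controls on the same diet gave 488 genes higher (3.82%) and 661 lower (5.18%), and 147 (25%) and 186 (35.3%) of the added differences measured there had the same call. A direct test of the added difference against the Bmal1 effect of batch 2 called 496 genes (3.79%), of which 234 belonged to the 1121. Its count was 300 without Vhl knockout 3 and 972 without Vhl knockout 2.

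Of the 13 E-box clock outputs, 1 was higher in that direct test and 0 lower (7.69%, against 3.79% of all genes in either direction). On this list 10 values of added difference minus Bmal1 effect lay above 0, with a median of 0.20. For the following clock genes and several others the direct test did not pass. Dbp had −2.15 with Vhl lost and −2.30 with Vhl intact (difference 0.15 ± 0.31), Nr1d1 −1.38 and −1.59 (difference 0.20 ± 0.16), Tef −0.92 and −1.08 (difference 0.17 ± 0.13), and Clock 0.64 and 1.02 (difference −0.38 ± 0.13). The difference for Ciart, 1.31 ± 0.67, had an adjusted p of 0.31. Slc2a3 had −3.50 and −3.29 (difference −0.22 ± 0.62), Cdkn1a 2.18 and 3.34 (difference −1.16 ± 0.39, adjusted p = 0.098), and Mrln 1.53 and 1.57 (difference −0.04 ± 0.12). The standard errors bound how far these pairs could differ, and a miss of the threshold does not show that they act alike.

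For other genes the effect of Bmal1 loss differed with the state of Vhl. Mylk4 and Tcap fell further with Vhl lost, by 1.67 ± 0.19 (adjusted p = 6.2e-07) and 0.41 ± 0.12 (adjusted p = 0.049). The Tcap value lay just under the threshold, and calls of the direct test were not checked gene by gene under other settings. Mylk4 stood at 43.3, 31.02, 41.2 and 37.3 scaled CPM in the Bmal1 knockouts of batch 2, between the Vhl knockouts and the double knockouts. Ttll7 rose further (1.01 ± 0.13), and Nqo1, which did not pass with Vhl intact (0.08 ± 0.11), rose with Vhl lost (1.32 ± 0.19, adjusted p = 1.5e-05). Slc16a1 fell further with Vhl lost (−0.68 ± 0.16, adjusted p = 0.0071), and Tbc1d1 less (0.90 ± 0.20, adjusted p = 0.0049). Klf5, a Krüppel-like factor, stood at 35.5, 27.02, 42.5 and 37.3 scaled CPM in the Vhl knockouts, 16.4, 15.9, 15.96 and 15.96 in the double knockouts and 11.2, 15.6, 15.03 and 13.2 in the Bmal1 knockouts, so that it was high in the Vhl knockouts alone (added difference −1.41 ± 0.18, difference −1.77 ± 0.22).

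Sln, Stab2 and Dkk3 gave the widest gaps with a simple reading in levels. Sln rose in the Bmal1 knockouts to 31.7, 24.8, 39.5 and 40.5 scaled CPM, from 0.992 to 3.89 (median 1.91) in their controls, whereas its added difference was negative (difference −6.15 ± 0.58, adjusted p = 2.3e-07). Each of the 3 genotypes was high against its controls, so adding Bmal1 loss to Vhl loss did not add the rise that Bmal1 loss gave alone. Stab2, a hyaluronan receptor, fell to 0.686, 0.561, 0.539 and 0.359 scaled CPM in the Bmal1 knockouts, from 4.89 to 6.996 (median 6.07), but stood at 16.9, 17.04, 14.8 and 18.6 in the double knockouts and 14.3, 16.8, 13.8 and 9.94 in the Vhl knockouts, above the 4.78 to 7.26 (median 5.53) and 4.33 to 5.68 (median 5.501) of their controls. The loss seen with Vhl intact was thus not seen without it (difference 3.63 ± 0.30, adjusted p = 5.4e-12). Dkk3, a secreted Dickkopf-family protein, was low in all 3 genotypes, at 0.979, 0.882, 0.674 and 0.628 scaled CPM in the Bmal1 knockouts, 0.696, 0.539, 1.32 and 0.941 in the Vhl knockouts and 0.548, 1.38, 1.696 and 0.548 in the double knockouts, against 5.49 to 8.403 (median 6.93) in the double-floxed controls. Since Vhl loss alone had lowered it, the added difference was 0.24 ± 0.42 and the difference from the Bmal1 effect 3.82 ± 0.51 (adjusted p = 2.2e-06). Levels as low as those in the Vhl knockouts limit how far a further fall could be measured.

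**Figure D5:**
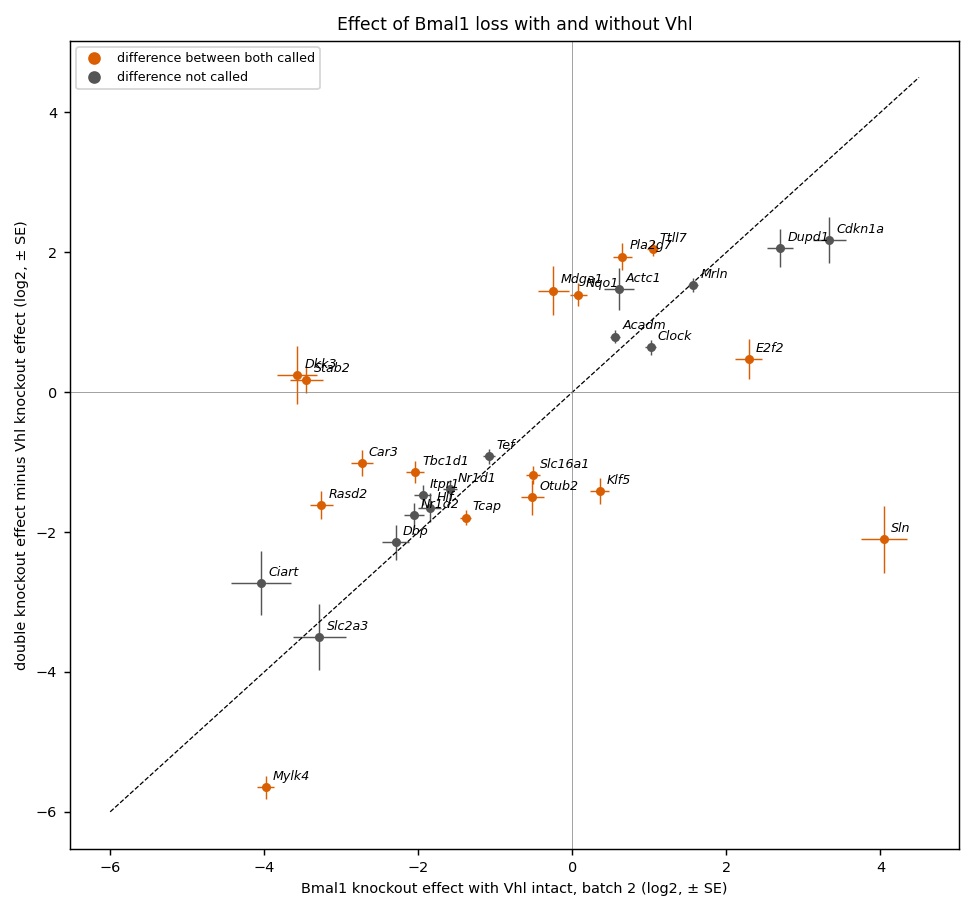
Effect of Bmal1 loss with Vhl intact (horizontal axis, log2, batch 2) against the added difference with Vhl lost (vertical axis, log2) for 30 genes, with standard errors. Orange marks genes for which the 2 values differed by the direct test, the dashed line marks equal values, and Sln, Stab2, Dkk3 and Mylk4 lie well off it.

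Across the oxidation genes the comparison went both ways in the number called, whereas each list's median was higher for the added difference. In the Bmal1 knockouts of batch 2, 49 of 77 respiratory chain genes rose against 27 in the contrast, and the medians were 0.23 and 0.25. The TCA cycle list had 9 of 26 higher and a median of 0.16, against 14 and 0.31, and the fatty acid list 10 of 34 higher, 1 lower and a median of 0.12, against 12 higher and 0.37. Acadm had 0.56 ± 0.06 with Vhl intact and 0.80 ± 0.10 with Vhl lost, a difference of 0.24 ± 0.12 (adjusted p = 0.29). Me1, in contrast, had 0.10 ± 0.07 and 0.67 ± 0.10, a difference of 0.56 ± 0.12 (adjusted p = 0.0028). Thus single members differed, but a difference for the lists as such was not tested.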

How the data were processed

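Counts per gene were deposited by the authors for 48321 symbols in 2 batches, without normalization. Per the submitters' processing notes, FastQC 0.11.4, STAR 2.6.0, HTSeq and edgeR 3.26.8 were used with mm10 and GRCm38.p4. Per the labels' protocols, RNA from snap-frozen gastrocnemius went into Lexogen QuantSeq 3′ FWD libraries. The authors also deposited normalized counts (a signal with no stated unit, 13893 genes in batch 2), used only for an alternative.

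The members and gene lists were chosen with earlier results of these data known. All 32 libraries of batch 2 (6 groups) were fitted together with edgeR 4.0.16 in R 4.3.3 (filterByExpr, TMM scaling, robust glmQLFit, glmQLFTest), so all groups share 1 estimate of the spread. Adjusted p-values are Benjamini-Hochberg values over 13093 genes. Batch 1 (19 libraries, 12762 genes) was fitted alone. Named genes were the 12 highest and 12 lowest of the contrast with an average log2 CPM of at least 2, the 4 highest and 4 lowest of the direct test against the Bmal1 effect, list members that passed and up to 4 more per list, without predicted, Riken or clone names. Gm27342, the B-cell genes, Vcam1 and Des fell outside this rule and were named after their values were seen. The mitochondrial share was compared by exact permutation. The labels call the libraries separate animals, and p-values measure the spread between them. Animal numbers shared between the 4 groups of the contrast did not pair the libraries: over 24 pairs the correlation of deviations ran from −0.227 to 0.049. The steps were tested on simulated counts. Alternatives were other scaling, filters, thresholds, DESeq2 1.42.0, limma 3.58.1 on log2 of the deposited signal plus a pseudocount of 1, single libraries left out and a pair left out. Symbols changed to dates by a spreadsheet (27) were kept as written. Promoters came from RefSeq (GRCm38.p6), with 216 of 285 named genes matched. Some members counted in the lists are not reported here by name.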

Additional observations from a re-analysis of the deposited data

Results flagged for a closer look

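In 37 of 145 genes tested for it, the added difference and the effect of Bmal1 loss with Vhl intact (batch 2) differed by edgeR's quasi-likelihood test of that difference, which is given here as added difference minus Bmal1 effect. These 145 genes were chosen for their values, some of them from this same test, which called 3.79% of all genes, so the count is not a share to read against that. It was negative for Sln (−6.15), Rrad (−1.88), E2f2 (−1.81), Klf5 (−1.77), Mylk4 (−1.67), Dok7 (−1.23), Runx1 (−1.16), Otub2 (−0.98), Slc16a1 (−0.68), Gpx1 (−0.59), Rps14 (−0.58), Tcap (−0.41) and Myom2 (−0.46). It was positive for Ighg2c, an immunoglobulin heavy chain (4.71), Dkk3 (3.82), Stab2 (3.63), Chac1, a glutathione-degrading enzyme (2.88), Car3 (1.72), Mdga1 (1.70), Rasd2 (1.64), Nqo1 (1.32), Zfp839 (1.31), Pla2g7 (1.29), Trdn (1.14) and Ttll7 (1.01). It was also positive for Tbc1d1 (0.90), Amd1 (0.87), Fmod (0.74), Phkg1 (0.66), Myh4 (0.60), Pgm2 (0.57), Me1 (0.56), Ryr1 (0.51), Lpin1 (0.49), Crebbp (0.48), Tnnt3 (0.47) and Psmd1 (0.46). Rrad, a small GTPase of muscle, rose in the Vhl knockouts (1.84), the double knockouts (1.01) and the Bmal1 knockouts (1.05), and E2f2, a cell-cycle factor, did likewise (1.18, 1.66 and 2.29). Chac1 fell in all 3 (−1.19, −0.95 and −2.64), and so did Ighg2c (−1.57, −1.50 and −4.64).

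In 9 of 148 sets of 4 or 6 libraries, each 1 quantity in 1 group of the contrast, 1 library stood far from the others, where chance flags about 1 group in 20. In scaled CPM these were Ttll7 in Vhl-floxed control 6 (202), Stab2 in Vhl-floxed control 6 (4.33), Cdkn1a in double-floxed control 4 (26.9), Tef in double-floxed control 1 (144) and Mpc1 in Vhl knockout 3 (39.2). Double knockout 1, the shallowest library, gave the other 3: Nqo1 (37.8), Nr1d1 (11.8) and Klf5 (16.4). The mitochondrial share of double-floxed control 4 was 22.3%.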

How the results depend on the processing

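The number of genes with an added difference was 1121. Among 12 other settings it ranged from 827 with a replicate block to 1304 with DESeq2, apart from 545 at an adjusted p under 0.01 and 1623 without Vhl knockout 2 and Vhl-floxed control 6, a pair chosen after seeing the data. Leaving out 1 library gave 763 (without Vhl knockout 3) to 1628 (without Vhl knockout 2). The direct test against the Bmal1 effect called 496 genes, but 225 with the block, 948 without the pair, 164 at an adjusted p under 0.01 and 300 (without Vhl knockout 3) to 972 (without Vhl knockout 2) without 1 library. With the block the Bmal1 effect of batch 2 called 598 genes in place of 1820. Among the 4 groups of the contrast, 0 of 24 pairs of libraries with the same number correlated above 0.1. Pairing by number was not tested in the Bmal1 knockouts and their controls. Left unscaled, the double knockout effect called 7008 genes (88.9% higher, 49.0% with scaling) and the control groups 3275 (94.4% higher). The unscaled Vhl effect was 89.5% higher, the Bmal1 effect 69.3% in batch 2 and 76.8% in batch 1, and the direct test 31.1%. The control groups gave 1393 genes with no filter and 362 at an adjusted p under 0.01, and batch 1 725 at the latter. The difference in mitochondrial share between Vhl knockouts and controls lay between −5.766 and −3.225 points without 1 library. The cause was not tested in these cases, other than fewer samples or genes.

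Of 145 genes, 103 kept direction and call in all their alternatives and 38 lost the call in at least 1. Outside single-library omissions, Pdhx and Psmd8 lost it without scaling, Tpm1 with limma, and mt-Co1 with the block or only 4 groups fitted. Genes that did not pass changed sign: Ighg2c (0.06) was −0.0814 with the block, −0.99 with limma and −2.005 to 0.483 without 1 library, and the same omissions gave Vhl −0.158 to 0.415, Dkk3 −0.0888 to 0.516 and Chac1 −0.0323 to 0.624. Genes near 3 counts a library, such as Slc2a3 in double knockouts, are limited by depth.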
